A study of Mus musculus with 12 samples.

Results

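The complement component C3, 3 proteins of the alternative pathway (Cfb, Cfd and Cfp), 3 regulators (Cfi, Cd55 and Cd59a) and 2 receptors (C3ar1 and C5ar1) were followed in mouse kidney cortex. These 9 genes were taken by symbol from the 24452 symbols of the count table. All 9 were present, and all 9 passed the expression filter together with a total of 14618 genes. The RNA came from C57BL/6 mice labelled adult male, by stranded mRNA sequencing of cortex pieces, in 12 libraries of 4 groups of 3. Control_water libraries were from saline-injected mice that drank water, and Control_captopril libraries from saline-injected mice given captopril, an inhibitor of angiotensin-converting enzyme whose dose the labels do not state. GN_water and GN_captopril libraries were from mice with glomerulonephritis (GN), on water or captopril. GN was brought on by intraperitoneal horse spleen apoferritin (10 mg, 5 times per week) with lipopolysaccharide from Salmonella Minnesota as adjuvant (100 µg, 3 times per week) over 6 weeks, and tissue was taken at week 9. The captopril label thus asks whether blocking the enzyme alters kidney injury in this model. Whether a library came from 1 mouse or a pool is not in the labels, so p-values measure only the spread between these libraries.

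Complement is a cascade of plasma and cell proteins that tags particles and cells for removal. Cleavage of C3 yields C3b, which binds surfaces, and C3a, a soluble peptide. On a surface, C3b binds factor B, factor D cuts the bound factor B, and properdin holds the resulting convertase together, so that more C3 is cut. Factor I, CD55 and CD59 limit the cascade on host cells, and the C3a and C5a peptides act on receptors that myeloid cells carry. In the kidney, complement is best known for its part in immune complex glomerulonephritis, and tubular cells are a known local source of C3 and factor B.

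Before the results, the libraries were set against their labels. Control_water and GN_captopril libraries held Y-linked transcripts (4 genes summing to 121 to 144 CPM, counts scaled to the library total after TMM adjustment) and almost no Xist. Control_captopril and GN_water libraries held Xist, the X-inactivation RNA, at 181 to 375 CPM, and the same Y-linked genes at 0.101 CPM or less. Ren1, the renin gene, was at 63.4 to 82.8 CPM in Control_captopril against 1083 to 1794 in Control_water, and at 438 to 690.5 in GN_captopril against 20.7 to 30.2 in GN_water. Xist thus goes against the male label in 6 libraries. Inhibition of the enzyme is known to raise renin expression, so that Ren1 goes against the captopril label in the controls, though not in GN. Group names below mean the libraries so labelled, and what the captopril label stands for in them is in doubt. The comparisons that lead are GN_water against Control_captopril, where both groups carry Xist, and GN_captopril against Control_water, where both carry Y-linked transcripts. The treatment label also differs within each of these pairs, in opposite directions, so there the GN and captopril labels cannot be told apart. A GN difference below is a difference between the libraries so labelled. Any further comparison of 2 groups sets Xist-carrying against Y-carrying libraries, and there the label and the sex-linked markers cannot be told apart. Markers of the labelled tissue were present in all libraries, at 6790 to 12503 CPM for 6 proximal tubule genes and 279 to 558 CPM for 4 glomerular genes. Adrenal cortex markers summed to 354 CPM in Control_captopril replicate 3, to 119 in GN_captopril replicate 3 and to 19.3 in GN_captopril replicate 2, and to 6.14 or less in the other libraries.

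The promoters of the 4 genes with the largest GN differences are shown first, because all 4 were called higher in both pairs described below. They are 300-base windows from RefSeq (GRCm38.p6), with 250 bases before and 50 from the annotated start, 5′ to 3′ on the gene's strand. The C3 window is at chr17:57228087-57228386, Cfp at chrX:20931506-20931805, C3ar1 at chr6:122856108-122856407 and C5ar1 at chr7:16259289-16259588, all on the minus strand. Capitals mark the letters that matched a searched motif.
C3: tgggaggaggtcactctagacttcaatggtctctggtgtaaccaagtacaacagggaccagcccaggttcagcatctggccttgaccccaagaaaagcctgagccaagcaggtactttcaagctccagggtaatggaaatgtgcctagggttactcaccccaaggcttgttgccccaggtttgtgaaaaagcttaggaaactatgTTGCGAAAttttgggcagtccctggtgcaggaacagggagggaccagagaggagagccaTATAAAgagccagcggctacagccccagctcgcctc
Cfp: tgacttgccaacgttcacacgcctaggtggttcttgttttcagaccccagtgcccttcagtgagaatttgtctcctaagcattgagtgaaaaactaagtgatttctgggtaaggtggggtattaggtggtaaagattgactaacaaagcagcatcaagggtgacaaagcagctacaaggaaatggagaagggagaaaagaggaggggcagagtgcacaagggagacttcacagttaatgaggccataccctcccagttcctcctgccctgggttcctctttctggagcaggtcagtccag
C3ar1: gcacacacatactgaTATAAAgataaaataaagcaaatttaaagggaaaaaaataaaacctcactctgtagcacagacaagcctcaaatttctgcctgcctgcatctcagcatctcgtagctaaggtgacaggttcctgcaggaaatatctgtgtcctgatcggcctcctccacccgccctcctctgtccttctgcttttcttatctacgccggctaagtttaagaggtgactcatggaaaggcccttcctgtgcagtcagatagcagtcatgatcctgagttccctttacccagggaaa
C5ar1: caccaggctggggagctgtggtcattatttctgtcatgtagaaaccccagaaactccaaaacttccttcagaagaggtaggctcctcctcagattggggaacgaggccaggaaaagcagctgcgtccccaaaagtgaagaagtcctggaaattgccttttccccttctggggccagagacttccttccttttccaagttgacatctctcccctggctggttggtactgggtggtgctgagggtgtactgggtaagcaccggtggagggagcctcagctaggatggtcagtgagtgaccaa

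The motifs named here were searched on both strands, and no match overlapped another. The C3 window held TTGCGAAA, a match to the C/EBP motif TTGCGNAA, at 45 to 38 bases before the start, and TATAAA at bases 15 to 20 after it. The C/EBP motif was found in 0.798% and TATAAA in 13.6% of 32851 promoter windows of the same length. The C3ar1 window held TATAAA 235 to 230 bases before the start. The STAT motif TTCNNNGAA (in 8.3% of all windows), the PU.1 motif GAGGAAG (in 13.6%), the androgen receptor palindrome (in 0.00913%) and the NF-kappaB motif (in 8.46%) had no match in any of the 7 windows found for these 9 genes. No window was found for Cfb or Cfi, so these genes were not searched. A match is a run of letters and was not tested for binding.

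C3 was the gene of the group with the largest rise in absolute level in GN. C3 (chromosome 17, 57203970 to 57228136, minus strand of GRCm38, the assembly of mm10) encodes the protein on which the activation pathways converge. Its level was 72.3, 54.6 and 79.2 CPM in Control_water replicates 1 to 3, and 78.3, 75.3 and 86.9 CPM in Control_captopril. It was 402, 584 and 304 CPM in GN_water, and 90.4, 124 and 478 CPM in GN_captopril. All GN_water libraries stood far above all controls. In GN_captopril, replicate 1 (90.4 CPM) lay just above the highest control (86.9) and replicate 2 (124) further above it. Only replicate 3 reached the GN_water range. Mean CPM was 5.37-fold higher in GN_water than in Control_captopril, and 3.36-fold higher in GN_captopril than in Control_water. By edgeR's quasi-likelihood test, the log2 fold change was 2.43 ± 0.48 (SE) in the first comparison (adjusted p = 0.00203) and 1.74 ± 0.48 in the second (adjusted p = 0.032).

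The second C3 difference rested on 1 library. Without GN_captopril replicate 3 it was 0.64 (adjusted p = 0.115), and its call was also lost without any 1 of the Control_water libraries (adjusted p = 0.0643 to 0.112), with limma-voom (0.0778), on RPKM (0.0974 and 0.109) and with only the 2 groups fitted (0.0869). That library also had the highest sum of 6 adipocyte markers, 107 CPM against 1.13 and 37.6 in the other GN_captopril libraries, and a macrophage marker sum of 862 against 448 and 447 CPM. In 4 of 4 groups the 3 libraries ranked alike for C3 and for the adipocyte sum, but GN_water replicate 3 had 304 CPM of C3 with an adipocyte sum of 1.93 CPM. The part of these cells in the C3 level was not tested. In bulk RNA, more cells of a type and more RNA per cell cannot be told apart, for any gene described here.

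**Figure D1:**
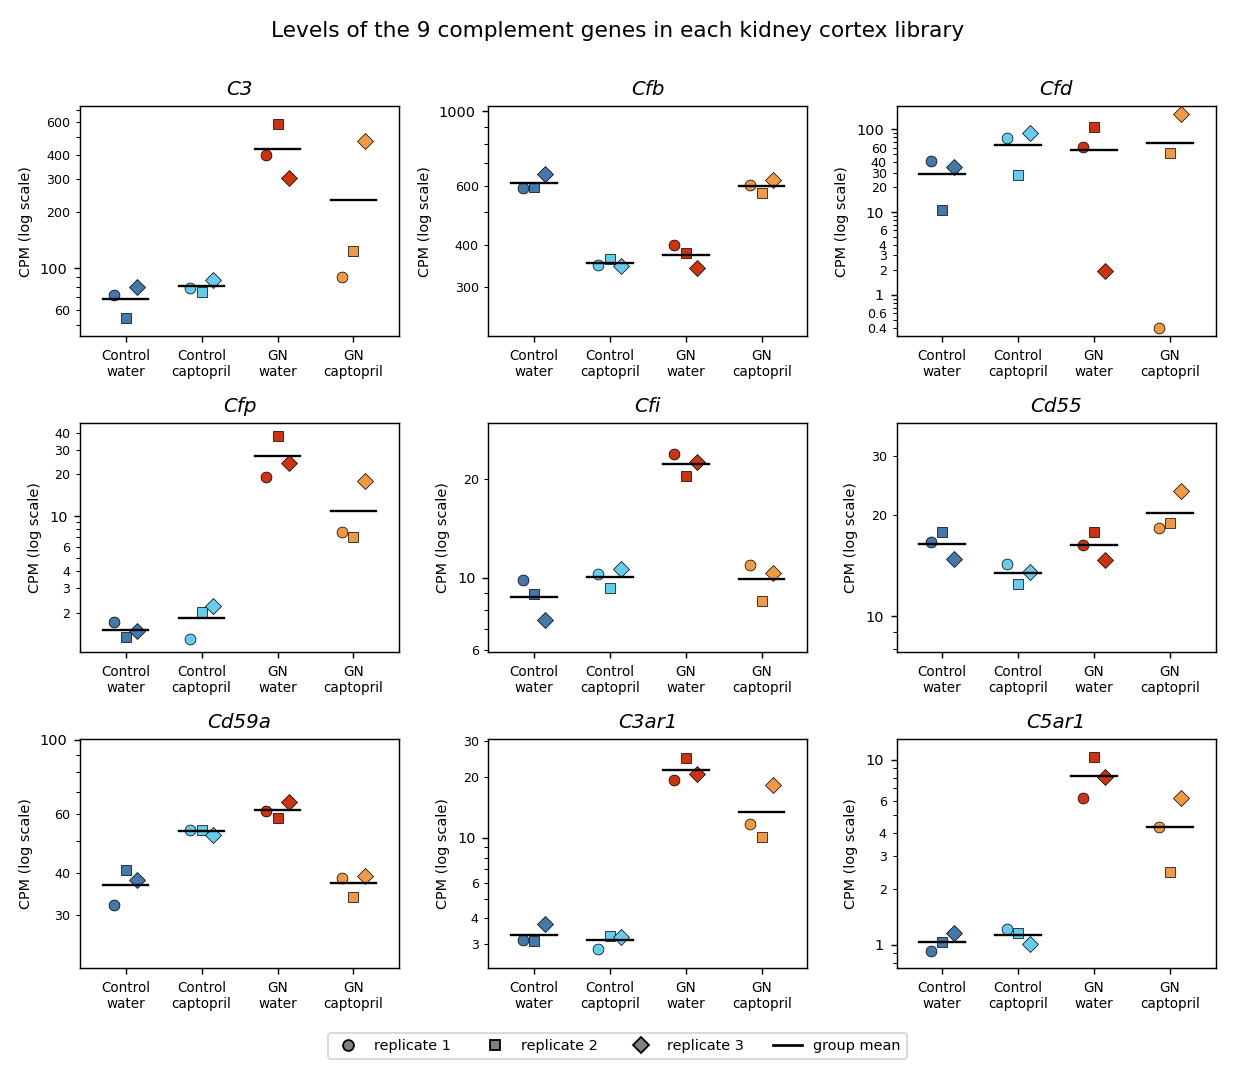
Level of each gene in every library, in CPM on a log scale, by group; symbols are replicates and bars are group means over 3 libraries. C3, Cfp, C3ar1 and C5ar1 are higher in all GN libraries than in all controls, Cfb separates Control_water and GN_captopril from the other groups, and Cfd varies from 0.398 to 152 CPM.

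Of the alternative pathway proteins, properdin rose in GN, factor B followed the sex-linked markers and factor D varied between single libraries. Cfp (chromosome X, 20925454 to 20931555, minus strand) encodes properdin, which stabilises the convertase. It was at 1.72, 1.34 and 1.48 CPM in Control_water, 1.3, 2.03 and 2.23 in Control_captopril, 19.3, 37.8 and 24.2 in GN_water and 7.70, 7.07 and 17.9 in GN_captopril. Every GN library was above every control, and every GN_water library was above every GN_captopril library, the closest pair being 19.3 and 17.9. The log2 fold change was 3.88 ± 0.37 (SE) for GN_water against Control_captopril (adjusted p = 1.06e-05, edgeR) and 2.81 ± 0.41 for GN_captopril against Control_water (adjusted p = 0.00117). These were the largest changes of the 9 genes in both comparisons. The control values rest on 22 to 44 counts per library.

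Cfb (chromosome 17, 34856374 to 34862518, minus strand) encodes factor B, the protease of the convertase. It was at 591, 593 and 649 CPM in Control_water and 603, 572 and 625 in GN_captopril, but at 347, 362 and 346 in Control_captopril and 399, 379 and 341 in GN_water. The 6 libraries with Y-linked transcripts were all above the 6 with Xist. Between groups with the same markers no GN difference passed the test: the log2 fold change was 0.09 (95% interval -0.05 to 0.22, adjusted p = 0.344, edgeR) for GN_water against Control_captopril and -0.03 (-0.16 to 0.11, adjusted p = 0.835) for GN_captopril against Control_water. Proximal tubule markers summed to 10902 to 12503 CPM in Control_water, 9008 to 10826 in GN_captopril, 8486 to 8786 in Control_captopril and 6790 to 7508 in GN_water, and their part in the Cfb level was not tested. By group mean Slc34a1 followed that order, and Slc22a6 did except that GN_captopril (1436 CPM) was above Control_water (1372). Other markers did not follow it. In Control_captopril against Control_water 3 of the 6 were called higher and 2 lower. In GN_captopril against Control_captopril 2 were called higher and 4 lower. The GENCODE annotation also holds Gm20547, a model on the same strand that overlaps Cfb and was not in the count table, so reads of the 2 cannot be separated here.

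Cfd (chromosome 10, 79890853 to 79892655, plus strand) encodes factor D, also known as adipsin, a protease that fat cells secrete. It was at 41.0, 10.7 and 34.9 CPM in Control_water, 78.8, 27.8 and 89.4 in Control_captopril, 61.8, 106 and 1.93 in GN_water and 0.398, 52.1 and 152 in GN_captopril. The highest library was 383-fold above the lowest, both in GN_captopril, and the lowest value rests on 6 counts. No GN difference was detectable against that spread: the log2 fold change was -0.19 ± 1.04 (SE) in GN_water against Control_captopril (adjusted p = 0.913, edgeR) and 1.22 ± 1.10 in GN_captopril against Control_water (adjusted p = 0.51). The adipocyte markers (Adipoq, Plin1, Cidec, Retn, Lep and Pnpla3), which do not include Cfd, summed to 1.93 CPM in GN_water replicate 3 and to 1.13 CPM in GN_captopril replicate 1, the 2 libraries with the least Cfd. None of the 6 markers passed the test in the GN comparisons.

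**Figure D2:**
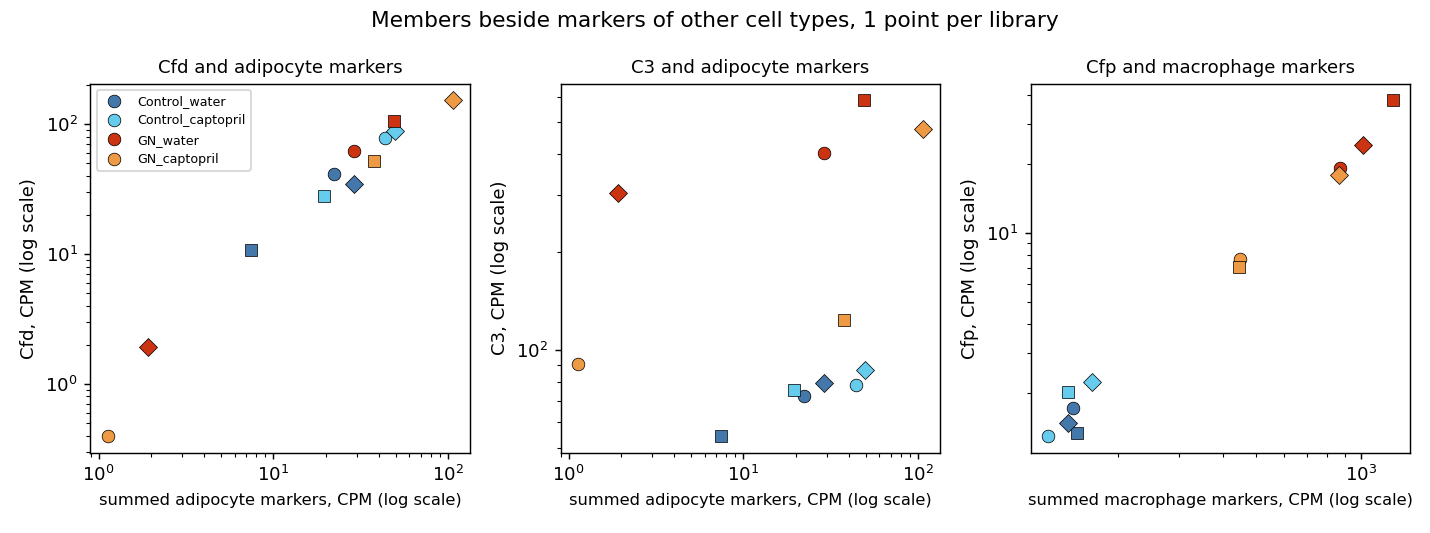
Cfd and C3 against the summed adipocyte markers, and Cfp against the summed macrophage markers, 1 point per library on log axes in CPM; circles, squares and diamonds are replicates 1, 2 and 3. Cfd ranks like the adipocyte sum in 3 of 4 groups, C3 is at 304 CPM in a GN_water library whose adipocyte sum is 1.93 CPM, and Cfp is low in all controls, where the macrophage sum is 126 to 169 CPM.

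Among the regulators, factor I rose in GN_water alone. Cfi (chromosome 3, 129835884 to 129875332, plus strand) encodes the serine protease that inactivates C3b and C4b. It was at 9.82, 8.92 and 7.41 CPM in Control_water, 10.3, 9.30 and 10.6 in Control_captopril, 23.9, 20.4 and 22.6 in GN_water and 11, 8.50 and 10.3 in GN_captopril. All GN_water libraries were above all others, and the GN_captopril libraries lay in the range of the controls but for replicate 1, just above it. The log2 fold change was 1.15 ± 0.11 (SE) for GN_water against Control_captopril (adjusted p = 1.3e-05, edgeR) and 0.17 ± 0.13 for GN_captopril against Control_water (adjusted p = 0.399). Cfi was the only one of the 9 genes for which these 2 GN differences themselves differed in the test, by -0.97 ± 0.17 (adjusted p = 0.00588). This call held in all 23 alternative analyses (adjusted p from 9.02e-05 to 0.0241).

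Cd55 (chromosome 1, 130439027 to 130462744, minus strand) encodes decay-accelerating factor, a membrane protein that takes convertases apart. It was at 16.7, 17.8 and 14.8 CPM in Control_water, 14.3, 12.5 and 13.6 in Control_captopril, 16.3, 17.9 and 14.7 in GN_water and 18.3, 19.0 and 23.7 in GN_captopril. GN_captopril was above Control_water and GN_water above Control_captopril in every library, but by little. Neither difference passed the test: 0.28 ± 0.11 (SE; adjusted p = 0.0721, edgeR) in GN_water against Control_captopril and 0.30 ± 0.11 (adjusted p = 0.0948) in GN_captopril against Control_water. With library totals the first was 0.37 and passed (adjusted p = 0.0226), as it did in 5 of the other alternatives. Averaged over the 2 pairs, the GN difference was 0.29 ± 0.08 and passed it (adjusted p = 0.013). An antisense gene, Gm16083, overlaps the start of Cd55, and the strand setting of the counting is not given in the sources used here.

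Cd59a (chromosome 2, 104095801 to 104115354, plus strand) encodes the main mouse form of CD59, which stops the membrane attack complex from assembling. It was at 32.1, 40.8 and 38.1 CPM in Control_water and 38.8, 33.9 and 39.2 in GN_captopril, but at 53.9, 54.0 and 52.1 in Control_captopril and 61.2, 58.6 and 65.3 in GN_water. As for Cfb, the 2 sets of libraries with different sex-linked markers did not overlap, but for Cd59a those with Xist were the higher ones. The GN difference was 0.21 ± 0.08 (SE) in GN_water against Control_captopril (adjusted p = 0.069, edgeR) and 0.01 ± 0.09 in GN_captopril against Control_water (adjusted p = 0.943). With library totals the first was 0.30 and passed (adjusted p = 0.0144), as it did in 5 of the other alternatives. Its paralog Cd59b was at a mean of 1.54 CPM over all libraries, and reads shared between the 2 may have been divided.

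The receptors for the small complement peptides were higher in every GN library than in every control. C3ar1 (chromosome 6, 122847138 to 122856161, minus strand) encodes the C3a receptor. It was at 3.12, 3.09 and 3.74 CPM in Control_water, 2.83, 3.27 and 3.24 in Control_captopril, 19.3, 24.7 and 20.6 in GN_water and 11.7, 10.1 and 18.4 in GN_captopril. All GN libraries were above all controls, and all GN_water libraries above all GN_captopril libraries. The log2 fold change was 2.79 ± 0.20 (SE; adjusted p = 1.81e-06, edgeR) for GN_water against Control_captopril and 2.01 ± 0.21 (adjusted p = 2.39e-04) for GN_captopril against Control_water.

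C5ar1 (chromosome 7, 16246743 to 16259540, minus strand) encodes the main C5a receptor, a chemotactic receptor of neutrophils and macrophages. It was at 0.931, 1.03 and 1.16 CPM in Control_water, 1.21, 1.15 and 1.01 in Control_captopril, 6.18, 10.4 and 8.05 in GN_water and 4.32, 2.47 and 6.17 in GN_captopril. The lowest GN library was above the highest control, and the lowest GN_water library (6.18) was level with the highest GN_captopril library (6.17). The log2 fold change was 2.86 ± 0.30 (SE; adjusted p = 1.68e-05, edgeR) for GN_water against Control_captopril and 2.04 ± 0.33 (adjusted p = 0.00199) for GN_captopril against Control_water. Control values rest on 17 to 27 counts per library. On log2(RPKM + 0.1), a scale that understates changes of low genes, the second difference was 1.20 and was still called.

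Between the groups, C3ar1, C5ar1 and Cfp moved beside markers of macrophages. The 8 macrophage markers, among them Adgre1, Csf1r, Cd68, Lyz2 and Cx3cr1, all detected in every library, summed to 144 to 153 CPM in Control_water, 126 to 169 in Control_captopril, 871 to 1235 in GN_water and 447 to 862 in GN_captopril. Of these 8 markers, 7 were called higher in GN_water than in Control_captopril and 8 in GN_captopril than in Control_water. The 8 neutrophil markers summed to 2.38 to 4.12 CPM in controls and 8.01 to 15.2 CPM in GN. Of these 8, 3 were called higher in GN_water than in Control_captopril and 4 in GN_captopril than in Control_water, while Ly6g, a defining marker of that cell type, had no count in 11 of 12 libraries. Within groups, the libraries ranked like the macrophage sum in 3 of 4 groups for Cfp, 2 for C3ar1 and 2 for C5ar1. They ranked like the neutrophil sum in 2, 3 and 2 groups. The part of macrophages and neutrophils in the differences of Cfp, C3ar1 and C5ar1 was not tested.

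Taken over the 9 genes, GN went with higher levels of some members in both pairs with like markers. In GN_water against Control_captopril 5 of the 9 genes were higher and 0 lower at an adjusted p under 0.05 (edgeR), where 16.9% of all genes tested were higher and 13.2% lower. In GN_captopril against Control_water 4 were higher and 0 lower, beside 7.05% and 5.02% of all genes. Both calls included C3, Cfp, C3ar1 and C5ar1, and the fifth in GN_water was Cfi. Without GN_captopril replicate 3 the second count was 3, as C3 dropped out, and the share of all genes called in that setting is not given here. The median log2 fold change of the 9 genes was 1.15 and 1.22, and that of all genes tested was 0.00 and -0.02. The second median is the value of Cfd, which did not pass the test, and it was 0.18 without GN_captopril replicate 3. The 2 comparisons share no library, but both take their spread from the same fit of all 12 libraries, so their p-values are not independent.

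Averaged over both pairs, 6 of the 9 genes were higher in GN and 0 lower, beside 16.3% and 14.6% of all genes. They were Cfp (log2 fold change 3.35 ± 0.28 SE, adjusted p = 2.55e-06, edgeR), C5ar1 (2.45 ± 0.22, 4.83e-06), C3ar1 (2.40 ± 0.14, 4.34e-07), C3 (2.09 ± 0.34, 4.82e-04), Cfi (0.66 ± 0.09, 8.04e-05) and Cd55. The average is made of the same libraries as the 2 comparisons and adds no samples to them. For Cfi it joins a pair that passed the test with one that did not. Cfb (0.03, 95% interval -0.07 to 0.13), Cfd (0.51, -1.11 to 2.14) and Cd59a (0.11, -0.02 to 0.24) did not pass the test. The interval of Cfd reaches up to the size of the C3 change.

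**Figure D3:**
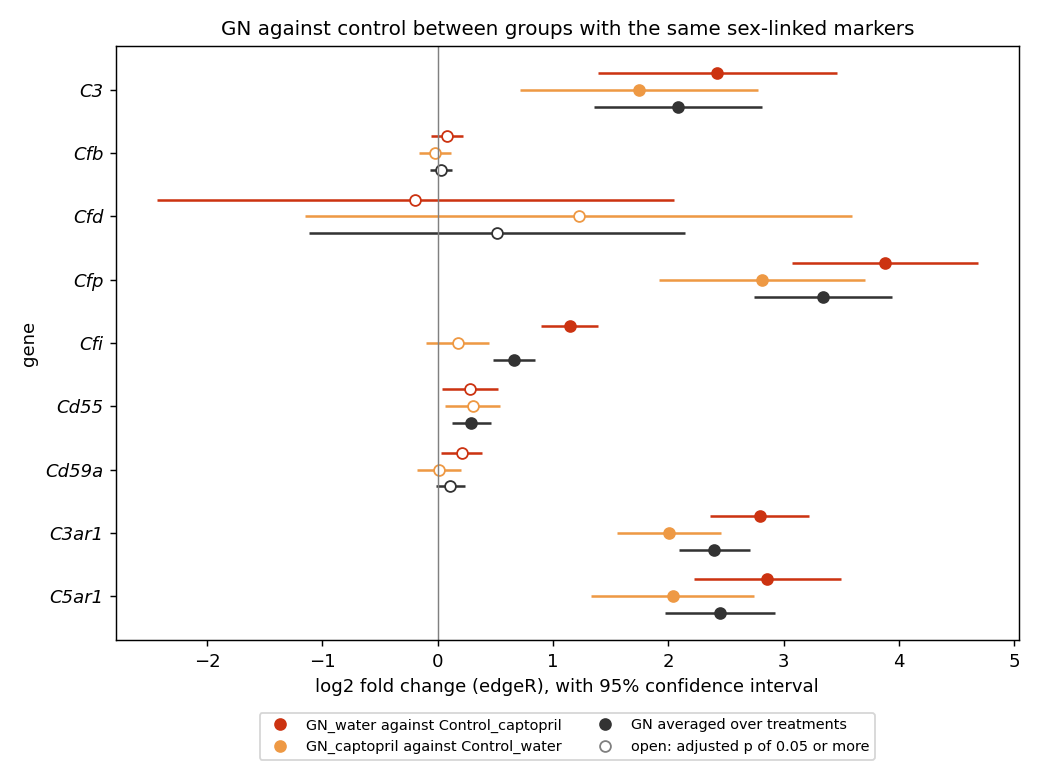
Log2 fold change of each gene for GN against control in the 2 pairs of groups with like sex-linked markers and averaged over both; bars are 95% intervals and open points have an adjusted p of 0.05 or more. Cfp, C3, C3ar1 and C5ar1 pass the test above 0 in both pairs, and Cfi only in GN_water against Control_captopril (1.15). Without passing it, the intervals of Cd55 lie above 0 in both pairs, and that of Cd59a in GN_water against Control_captopril. The intervals of Cfb include 0.

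The GN difference was then compared between the pairs, GN_captopril against Control_water minus GN_water against Control_captopril. Of the 9 genes 0 were higher and 1 lower, beside 3.17% and 3.34% of all genes, and the 1 was Cfi, given above. Of the others, 4 called higher in both pairs had negative estimates that did not pass the test: C3 -0.68 ± 0.66 (SE; adjusted p = 0.565, edgeR), Cfp -1.07 ± 0.59 (0.298), C3ar1 -0.79 ± 0.29 (0.121) and C5ar1 -0.82 ± 0.46 (0.298). Without GN_captopril replicate 3 the count was 4: C3 -1.78 (adjusted p = 0.00648), Cfp -1.61 (0.0446), C3ar1 -1.08 (0.00866) and Cfi -1.0 (0.0078). Without that library and Control_captopril replicate 3, the other library rich in adrenal markers, it was 3. The shares of all genes called in these settings are not given here, so the rise in the count is not set against them. For Cfb (-0.11) and Cd59a (-0.20) the 95% intervals were -0.31 to 0.08 and -0.45 to 0.06. This difference is also the captopril label averaged over disease, times 2, and the 2 readings cannot be told apart.

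The comparisons that the labels imply set libraries with Xist against libraries with Y-linked transcripts. In GN_water against Control_water 6 genes were higher and 1 lower, beside 27.4% and 23.9% of all genes. C3 (log2 fold change 2.65 ± 0.49 SE), Cfp (4.15 ± 0.39), Cfi (1.35 ± 0.12), Cd59a (0.74 ± 0.08), C3ar1 (2.71 ± 0.20) and C5ar1 (2.98 ± 0.31) were higher, and Cfb was lower at -0.71 ± 0.06. All had adjusted p of 5.34e-04 or less (edgeR). In GN_captopril against Control_captopril 6 were higher and 1 lower, beside 20.5% and 19.3%. Here C3 (1.52 ± 0.47, adjusted p = 0.0205), Cfp (2.55 ± 0.39), Cfb (0.77 ± 0.06), Cd55 (0.60 ± 0.11), C3ar1 (2.09 ± 0.20) and C5ar1 (1.91 ± 0.31) were higher and Cd59a was lower (-0.52 ± 0.08). The C3 value was 0.42 without GN_captopril replicate 3 (adjusted p = 0.175), and its call was lost in 8 of 24 alternatives. Cfb and Cd59a thus changed in opposite directions in the 2 labelled disease comparisons.

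For the captopril label in GN, that is GN_captopril against GN_water, 2 genes were higher and 5 lower, beside 19.6% and 25.5% of all genes. Cfp (-1.33 ± 0.31 SE, adjusted p = 0.0037, edgeR), Cfi (-1.17 ± 0.12, 5.11e-06), C5ar1 (-0.95 ± 0.26, 0.00997), Cd59a (-0.73 ± 0.08, 1.75e-05) and C3ar1 (-0.70 ± 0.18, 0.00578) were lower. Cfb (0.69 ± 0.06, 2.77e-06) and Cd55 (0.31 ± 0.11, 0.0332) were higher. The Cd55 call ended when GN_captopril replicate 3 was left out (0.19, adjusted p = 0.149) or GN_water replicate 3 (0.0665), without both libraries rich in adrenal markers (0.169), with library totals in place of TMM (adjusted p = 0.2), with upper quartile scaling (0.053) and on RPKM (0.202 with either pseudocount). That of C5ar1 ended when GN_water replicate 2 was left out (adjusted p = 0.0658). C3 did not pass the test (-0.90 ± 0.46, adjusted p = 0.123), but it passed in 5 of 24 alternatives. Without GN_captopril replicate 3 it was -2.01 (adjusted p = 3.44e-05), and it also passed without both libraries rich in adrenal markers. With all libraries kept, C3 was -1.25 with limma-voom (adjusted p = 0.0327) and -1.36 and -1.38 on RPKM (0.0412 and 0.0392). Beside these, 7 of 8 macrophage markers were also called lower, and their part was not tested.

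In controls, where Ren1 goes against the label, captopril went by label with 1 gene higher and 1 lower, beside 15.4% and 17% of all genes: Cd59a at 0.53 ± 0.08 (SE; adjusted p = 3.32e-04, edgeR) and Cfb at -0.80 ± 0.06 (8.86e-07). In the labelled interaction of disease and captopril 2 were higher and 3 lower, beside 23.6% and 27.1%. By its construction this test sets the 6 libraries with Y-linked transcripts against the 6 with Xist. Cfb (1.48 ± 0.09, adjusted p = 2.50e-08) and Cd55 (0.61 ± 0.16, 0.00589) were higher, and Cd59a (-1.26 ± 0.12, 1.62e-06), Cfi (-1.37 ± 0.17, 1.95e-05) and Cfp (-1.60 ± 0.58, 0.0355) were lower. C3 (-1.12 ± 0.66, 0.171), C3ar1 (-0.61, 0.0965) and C5ar1 (-1.07, 0.0645) did not pass the test, but all 3 did without GN_captopril replicate 3 (C3 -2.23, adjusted p = 7.53e-05, C3ar1 -0.90, 0.00238, and C5ar1 -1.42, 0.0106), which made the count 8. The share of all genes called without that library is not given here. With library totals C3ar1 and C5ar1 also passed (adjusted p = 0.0228 and 0.0234), as they did on RPKM (C3ar1 0.0170 and 0.0178, C5ar1 0.0174 and 0.0161). The Cd55 call was lost with library totals (0.35, adjusted p = 0.0679) and on RPKM (0.0824 and 0.0782). The Cfp call was lost in 9 of 23 alternatives (adjusted p up to 0.098).

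Another scaling moved all genes, not only these. With library totals in place of TMM, the median of all genes was 0.21 in GN_water against Control_water, -0.20 in GN_captopril against GN_water, 0.13 in Control_captopril against Control_water and -0.33 in the interaction. The genes called became 6758 higher and 1575 lower in the first of these, 1731 and 6001 in the second, 3933 and 1532 in the third, and 1986 and 6600 in the interaction. The directions of Cfb and Cd59a in these comparisons did not flip under that scaling.

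**Figure D4:**
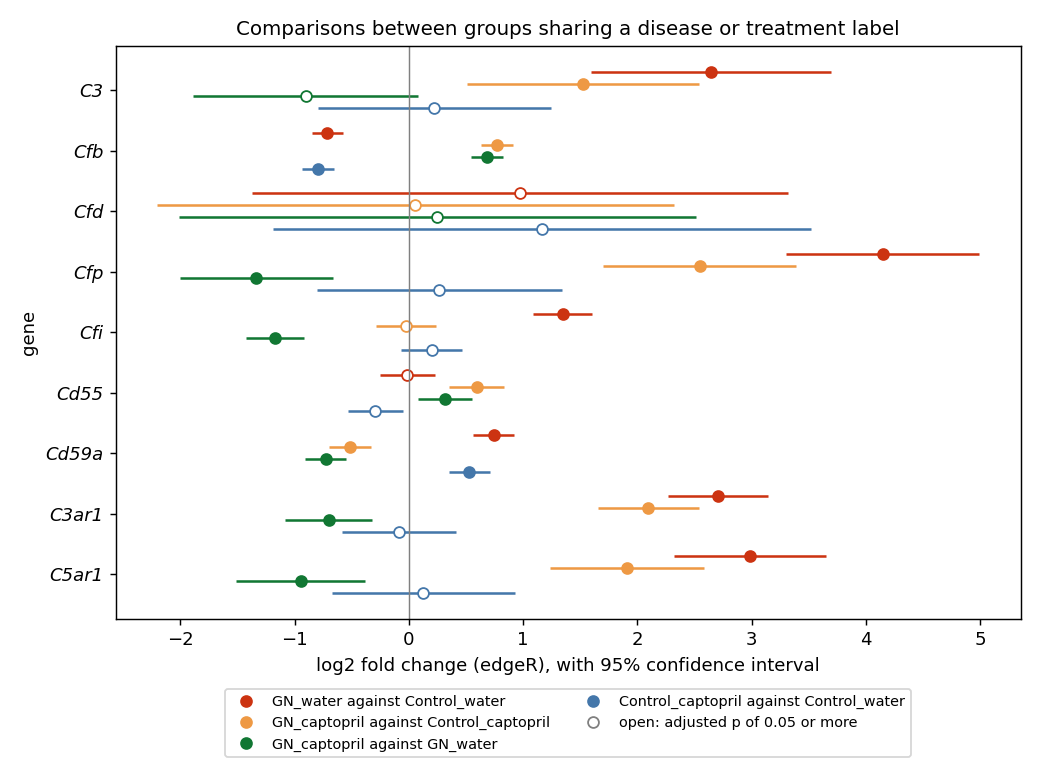
Log2 fold change of each gene in the 4 comparisons of groups with the same disease label or the same treatment label; bars are 95% intervals and open points have an adjusted p of 0.05 or more. Cfb and Cd59a lie on opposite sides of 0 in each comparison, while Cfp, C3ar1 and C5ar1 are above 0 in both disease comparisons and below 0 in GN_captopril against GN_water.

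Per kilobase of annotated exon, Cfb was the most abundant of the 9 transcripts in all 4 groups, at 216 ± 11.6 CPM per kb (SD, n = 3) in Control_water, 124 ± 3.11 in Control_captopril, 132 ± 10.4 in GN_water and 212 ± 9.38 in GN_captopril. The order takes all counts as exonic, and whether intronic reads were counted is not known. Genomic span against exonic length ran from 1.80 against 0.922 kb for Cfd to 39.4 against 2.22 kb for Cfi. C3 ranked 4 of the 9 in both control groups (13.4 ± 2.47 and 15.6 ± 1.17 CPM per kb), 2 in GN_water (83.6 ± 27.6) and 3 in GN_captopril (44.9 ± 41.8). In Control_water the order after Cfb was Cfd, Cd59a, C3, Cfi, Cd55, Cfp, C3ar1 and C5ar1, in which Cfd and Cd59a, Cfi and Cd55, and Cfp and C3ar1 had overlapping ranges of mean ± SD. The same order held in Control_captopril, where no neighbours' SD ranges overlapped. In GN_water Cfp, at 15.6 ± 5.54 CPM per kb, stood above Cfi at 10.0 ± 0.782 with overlapping SD ranges, whereas in the controls it was below both Cfi and Cd55. C5ar1 was the least abundant in every group, at 0.404 ± 0.044 CPM per kb in Control_water and 3.19 ± 0.813 in GN_water, where its SD range overlapped that of Cd55 (3.36). In GN_captopril the order was Cfb, Cfd, C3, Cd59a, Cfp, Cfi, Cd55, C3ar1 and C5ar1, and the SD ranges of all neighbours overlapped except those of Cfb and Cfd, and of Cd59a (20.6 ± 1.63) and Cfp (6.28 ± 3.51).

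The genes with the most similar pattern over the 12 libraries were found by the root mean square (rms) difference of centred log2 CPM, among 12858 genes. This is a description of these libraries. For C3 they were Ccl6, a chemokine (0.24), and Steap4, a metalloreductase (0.26), both with their highest group mean in GN_water. The highest single library for Steap4 was in GN_captopril (14.6 CPM, against up to 13.4 in GN_water). For Cfp they were Ms4a6d (0.21) and Itgam (0.23), for C3ar1 Lpcat2 (0.14) and Lst1 (0.18), and for C5ar1 the transcription factor gene Batf (0.21) and the lectin gene Clec4a2 (0.21). Ms4a6d, for instance, was at 0.492 ± 0.109 CPM (SD, n = 3) in Control_water and 10.3 ± 2.41 in GN_water. The receptors were also like each other (C3ar1 and C5ar1, 0.21). Cfd had as neighbours the fat hormone genes Adipoq (0.28) and Retn (0.48), Cfi had Lhfpl2 (0.17) and Adamts12 (0.19), and Cfb had Grhpr (0.09) and C1rl (0.09). Grhpr, a glyoxylate-metabolising enzyme, was at 318 ± 2.56 CPM in Control_water and 185 ± 9.24 in GN_water. Cd59a had Slc31a2 (0.08) and Rab25 (0.09), and Cd55 had Mocos (0.11) and Rap1b (0.11).

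The rest of the complement system was read from a list of 47 other genes, of which 46 were in the count table and 34 passed the filter. Averaged over both pairs, 16 were higher in GN and 2 lower, beside 16.3% and 14.6% of all genes. In GN_water against Control_captopril 15 were higher and 0 lower, beside 16.9% and 13.2%, and in GN_captopril against Control_water 9 were higher and 0 lower, beside 7.05% and 5.02%. In the averaged comparison, 7 of 14 classical and lectin pathway genes were higher and 1 lower, with 2 of 5 terminal genes, 2 of 8 regulators and 5 of 7 receptors higher and 1 receptor lower. The median log2 fold change of the 34 was 0.32, against -0.01 for all genes tested.

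The 3 chains of C1q, the recognition protein of the classical pathway, were at 22.1 ± 2.12 CPM (C1qa, SD, n = 3) in Control_water, 22.3 ± 4.70 in Control_captopril, 136 ± 16.9 in GN_water and 66.9 ± 28.7 in GN_captopril. C1qa rose by a log2 fold change of 2.11 ± 0.17 (SE) in the averaged GN comparison, with C1qb at 2.13 ± 0.18 and C1qc at 2.18 ± 0.18 (all adjusted p 3.18e-06 or less, edgeR). Of the terminal genes C7 (1.56 ± 0.10) and C6 (1.46 ± 0.21) rose. For C6 the average joins GN_water against Control_captopril, which passed (2.06, adjusted p = 1.90e-04, edgeR), with GN_captopril against Control_water, which did not (0.87, 0.0859). In the averaged comparison on log2(RPKM + 0.1), a scale that understates changes of low genes, C7 was at 0.96, C6 at 0.24 and Itgam, named next, at 1.66, all still called. Of the regulators Serping1, the C1 inhibitor gene, rose by 1.0 ± 0.10. The receptor subunit genes Itgam (3.14 ± 0.26) and Itgb2 (2.01 ± 0.19), which encode complement receptor 3, and Cd93 (0.64 ± 0.06) rose as well. In the test of the difference between pairs 3 of the 34 genes were lower and 0 higher, beside 3.34% and 3.17% of all genes. The 3 were C7 (-1.41 ± 0.20, adjusted p = 0.0022, edgeR), Cd93 (-0.66 ± 0.13, 0.0092) and Serping1 (-0.83 ± 0.20, 0.0313). The Serping1 call was lost in 8 of 23 alternatives, on RPKM (adjusted p = 0.052 and 0.054) and without Control_water replicate 3, Control_captopril replicate 1, GN_captopril replicate 2 or any 1 GN_water library (up to 0.0807). Without GN_captopril replicate 3 the count of lower genes was 8, and the share of all genes lower in that setting is not given here.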

How the data were processed

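The authors deposited estimated (expected) counts per gene symbol, not scaled for depth, and a table of RPKM. The tools were Bowtie2 and Partek with mm10, per the submitters' processing notes, with versions, roles and annotation not given in the sources used here. Of the deposited expected counts 86.4% were whole exactly as written, with no tolerance, and all were rounded for testing. The length implied by the deposited counts over RPKM was 1.04 to 1.06 times the genomic span of the 9 genes, so RPKM was not compared between genes, and whether intronic reads were counted is not known.

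Library totals were 14.2 to 22.8 M (mega) counts (14.2 in GN_captopril replicate 3), and the 9 genes had 6 to 14222 counts per library. Genes kept by edgeR's filterByExpr (minimum count 10, minimum total 15) were scaled by TMM (factors 0.932 to 1.08) and tested by quasi-likelihood in edgeR 4.0.16 (R 4.3.3), with 1 mean per group over 12 libraries. Adjusted p-values are Benjamini-Hochberg over all 14618 genes in each of 9 comparisons, at a threshold of 0.05. An SE is the log2 fold change over the root of F, and CPM use TMM-adjusted totals. The fit was tested on simulated data. Coordinates and exon lengths came from GENCODE (GRCm38) and promoters from RefSeq. The count table was joined to groups through the labels; replicates 1 to 3 are in accession order and name samples only.

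Pairs of replicates differed beyond sampling noise (chi-square per degree of freedom 5.33 to 14.5), so none was counted as 1 library. Alternatives were other filters, scalings, tools (DESeq2 1.42.0, limma 3.58.1 with voom, RPKM with pseudocounts of 0.1 and 0.01), a replicate block, and leaving out libraries. All 9 genes are named. Other complement genes were named by the 3 smallest adjusted p per role in the averaged GN comparison, except that a gene that met this rule is not reported here. Similar genes were the 2 nearest with a mean of at least 1 CPM. Among marker lists, hepatocyte markers summed to 141 to 385 CPM. The 9 genes, lists, comparisons and alternatives were chosen with earlier results of these data known. Figures used matplotlib 3.10.9.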

Additional observations from a re-analysis of the deposited data

Results flagged for a closer look

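The GN difference of Cfi differed between the 2 pairs of groups with like sex-linked markers by -0.97 (log2, edgeR, adjusted p = 0.00588), from 1.15 in GN_water against Control_captopril to 0.17 in GN_captopril against Control_water. This value is also the captopril label averaged over disease, times 2. A difference by captopril label and a GN difference that depends on the sex-linked markers cannot be told apart in it.

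By the labelled interaction of disease and captopril, the GN difference also differed between mice labelled captopril and mice labelled water for Cfb (1.48), Cd55 (0.61), Cd59a (-1.26), Cfi (-1.37) and Cfp (-1.60). Their adjusted p-values (edgeR) are given above. In this test the captopril label and the sex-linked markers cannot be told apart.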

How the results depend on the processing

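The analyses that bear on these genes numbered up to 24 per comparison. The 44 member results that passed the test kept their direction in all 1044 alternative values and their call in 1007 of them, and the 37 lost calls concern C3, Cfp, Cd55 and C5ar1 in the comparisons named above. Results of C3, Cfp, Cd55, Cd59a, C3ar1 and C5ar1 that had not passed the test passed it in some alternatives. Values of Cfb, Cfd and Cd59a that had not passed the test changed sign. For Cfb in GN_captopril against Control_water the log2 fold change was 0.031 with library totals, 0.0092 with upper quartile scaling and 0.028 on RPKM with either pseudocount. For Cfd it was -0.97 (limma-voom), -0.86 and -0.96 (RPKM with 0.1 and 0.01) and -0.0060 (without the 2 libraries with most adrenal counts) in the averaged comparison, -0.73, -0.52, -0.68 and -0.11 in GN_captopril against Control_water, and 0.013 (replicate block) and 0.10 (without both adrenal libraries) in GN_water against Control_captopril. For Cd59a in GN_captopril against Control_water it was -0.024 without both adrenal libraries. Without them the number of members called was 3 in the difference between pairs and 8 in the interaction, and 8 other complement genes were lower in that difference (6 with the replicate block). The shares of all genes called in those settings are not given here, and the cause of these changes was not tested.

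With 1 library left out at a time, Cfb ranged from -0.020 to 0.051 in the averaged comparison, -0.021 to 0.10 in GN_water against Control_captopril, -0.057 to 0.018 in GN_captopril against Control_water and -0.14 to 0.0015 in the difference between pairs. Cfd ranged from -0.15 to 0.80, -1.07 to 0.31 and -0.11 to 1.80 in the first 3 of these, and Cd59a from -0.085 to 0.089 in GN_captopril against Control_water. The number of members called ranged from 1 to 4 in the difference between pairs and from 4 to 8 in the interaction, and that of other complement genes lower in the former from 2 to 8, each highest without GN_captopril replicate 3. The shares of all genes called with a library left out are not given here, so these ranges are not set against them.

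The title numbers share no stated mouse or batch. Over 18 pairs of libraries with the same number, deviations from the group means correlated from -0.24 to 0.24, and 5 of 12 libraries correlated best with their own number. With the replicate block no member count moved by over 1.5 times. Depth limits the low genes: C5ar1 and Cfp in controls, and Cfd at 6 counts in GN_captopril replicate 1.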
